A study of Trichoderma reesei with 36 samples.

Results

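Of the 9129 genes counted in *T. reesei* Rut-C30, 4 were followed here over all feeds and times, IDs 22210, 22459, 124051 and 23171. They were chosen on measured values, since the study names them for proteolysis within its cluster of strongly down-regulated genes, a cluster built from comparisons of the feeds with G100 and with L100. The gene list of the study annotates ID 22210 as a putative carboxypeptidase A1, ID 22459 as a putative carboxypeptidase and ID 124051 as a putative serine peptidase. It annotates ID 23171 as a putative peptaibol synthase, an enzyme that assembles peptides rather than cleaving them, so 3 of the 4 genes are annotated peptidases and the name proteolysis does not describe the remaining one. All 4 passed the filter on low counts, and the lowest count of any of them in any library was 4.

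Peptidases cut the bonds between amino acids. Carboxypeptidases release single amino acids from the carboxyl end of a protein, while serine peptidases use an active-site serine and often cut inside the chain. Filamentous fungi secrete both kinds to feed on protein, and these enzymes can also attack secreted cellulases, so they matter where *T. reesei* is grown to make enzymes. A peptaibol synthase is a very large nonribosomal peptide synthetase, which joins amino acids without a ribosome into peptaibols, short peptides of *Trichoderma* that act on membranes.

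Rut-C30 is a hypercellulolytic mutant strain whose carbon catabolite repressor gene *cre1* is truncated, and this holds for every group. Flasks were grown on glucose and then fed with pure glucose (G100), with 90 % glucose and 10 % lactose (G90-L10), with 75 % glucose and 25 % lactose (G75-L25) or with pure lactose (L100), and RNA of whole mycelium was taken 48 h and 24 h after the feed began. There were 6 libraries at each time for G100, 2 for G90-L10, 4 for G75-L25 and 6 for L100, 36 in all in 8 groups. The labels carry one year for the mixtures and an earlier one for the pure feeds, so that a mixture and the year cannot be told apart when set against a pure feed. Flasks of different feeds were filled from a shared batch culture, but the labels do not say which flasks belong together.

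Library totals ranged from 9955798 to 49808747 counts (median 23493202). The 7 genes used to check the feed, the cellulase genes CBH1, CBH2, CEL61A, CEL5A and CEL7B, the lactose permease gene CRT1 and the regulator gene XYR1, were all higher on L100 than on G100 at 24 h by the thresholds of the study, and 6 of 7 were at 48 h. XYR1 was 1.74 ± 0.25 (SE) higher on the log2 scale at 48 h. All 7 belong to the clusters of the study that are raised on lactose, which were built from these same samples. Their rise over all libraries is therefore no independent evidence. A total of 3 libraries stood apart. The library labelled L100, 48 h, replicate 3 had a normalised read count of 4154 CPM for CBH1, against 159400 to 206500 in the other 5 L100 libraries of that time and 4576 to 14730 in G100. One G75-L25 library at each time, both named replicate 4 here, was above the other 3 of its group for 6 of the 7 genes at 48 h and 5 at 24 h. The gap was widest for CEL61A, with 7144 CPM at 48 h and 6145 CPM at 24 h, where the other 3 held 2536 to 2974 CPM at 48 h and 2619 to 2978 CPM at 24 h. CEL5A was instead just below the other 3 at both times, and CRT1 lay within their range at 24 h. Labels were kept as given, whether samples were exchanged was not tested, and values are given for all 36 libraries, for the 33 others or, where these differ, for both. The labels carry no replicate numbers. Those used here only name libraries in the order of deposit and pair none.

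ID 22210, the putative carboxypeptidase A1, was the steadiest of the 4 genes on G100. CPM values are read counts scaled to one common library size after TMM normalization, and since the cultures are bulk samples, fewer transcripts per cell and fewer cells that express a gene cannot be told apart. At 48 h it had 29.1 to 36.01 CPM on G100 (median 31.6), 11.5 and 13.6 on G90-L10, 9.98, 9.70, 9.97 and 2.91 on G75-L25, and 0.484 to 17.8 on L100 (median 1.35). At 24 h it had 39.7 to 72.6 CPM on G100 (median 60.1), 19.6 and 14.0 on G90-L10, 13.3, 12.3, 17.2 and 2.35 on G75-L25, and 2.28 to 5.47 on L100 (median 3.73). No library of a lactose-containing feed reached the lowest G100 library of its time. The 17.8 CPM on L100 and the lowest value on G75-L25 at each time belong to the 3 libraries that stood apart. The other 5 L100 libraries at 48 h lay between 0.484 and 1.92 CPM.

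The lactose mixtures held ID 22210 between the pure feeds. Among the 33 libraries its mean on G90-L10 was 39.4 % of the G100 mean at 48 h and 29.1 % at 24 h. On G75-L25 the shares were 31.0 % at 48 h and 24.7 % at 24 h, and on L100 they were 3.88 % and 6.61 %. Ordered by mean, the 8 groups ran from G100 at 24 h over G100 at 48 h, G90-L10 at 24 h, G75-L25 at 24 h, G90-L10 at 48 h, G75-L25 at 48 h and L100 at 24 h down to L100 at 48 h. Of the 7 pairs of neighbours in that order, 2 overlapped in range, both among the mixtures. With all 36 libraries 4 of 7 overlapped.

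ID 22459, the second carboxypeptidase, rested on the lowest counts of the 4 genes. At 48 h it had 12.4 to 22.6 CPM on G100 (median 18.1), 3.38 and 4.13 on G90-L10, 4.84, 3.99, 4.55 and 0.556 on G75-L25, and 0.301 to 55.1 on L100 (median 0.926). At 24 h it had 16.03 to 32.9 CPM on G100 (median 26.2), 7.17 and 11.3 on G90-L10, 9.12, 10.1, 8.45 and 2.20 on G75-L25, and 2.09 to 5.04 on L100 (median 3.07). The 55.1 CPM belong to the library labelled L100, 48 h, replicate 3, and exceed every G100 library, while the other 5 libraries of that group did not exceed 2.17 CPM. Among those 5 the counts ran from 4 to 49, so that counting error weighs more on this gene than on the others.

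Without the libraries that stood apart, every lactose-containing feed held ID 22459 below every G100 library of the same time. Its means on the mixtures lay close together. At 48 h the G90-L10 mean was 21.7 % and the G75-L25 mean 25.8 % of the G100 mean, and at 24 h both were 36.1 %. On L100 the share was 5.46 % at 48 h and 12.7 % at 24 h. In the order of the 8 group means of these 33 libraries, 5 of 7 pairs of neighbours overlapped, and G75-L25 and G90-L10 overlapped at both times. With all 36 libraries all 7 pairs overlapped.

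ID 124051, the putative serine peptidase, overlapped the range of G100 in some mixture groups, where the carboxypeptidase genes did not. At 48 h it had 55.9 to 139 CPM on G100 (median 109), 76.9 and 26.2 on G90-L10, 39.4, 47.1, 37.8 and 6.72 on G75-L25, and 1.02 to 8.06 on L100 (median 2.14). At 24 h it had 34.0 to 185 CPM on G100 (median 76.2), 141 and 53.3 on G90-L10, 42.2, 47.2, 55.5 and 3.45 on G75-L25, and 1.66 to 6.12 on L100 (median 3.72). Every L100 library lay far below every G100 library at both times, also the one that stood apart. The G90-L10 libraries overlapped the range of G100 at both times, and those of G75-L25 overlapped it at 24 h.

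On G90-L10 the mean of ID 124051 was 51.9 % of the G100 mean at 48 h and 111 % at 24 h. On G75-L25 it was 41.7 % and 55.1 % without the libraries that stood apart, and on L100 1.89 % and 4.21 %. Among the 33 libraries the step between G75-L25 at 48 h and L100 at 24 h was the only pair of neighbours in the order of means, out of 7, whose ranges did not overlap. Within G100 at 24 h the highest library held 5.44 times the CPM of the lowest, against 1.83 times for ID 22210.

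ID 23171, the putative peptaibol synthase, had the most counts on G100 but is also by far the longest gene. Its span in the RefSeq annotation is 69518 bp, introns included, against 1434 bp for ID 22210, 1329 bp for ID 22459 and 1820 bp for ID 124051. Per kilobase of span it had 2.36 CPM on G100 at 24 h, where ID 124051 had 48.1, ID 22210 had 40.3 and ID 22459 had 19.2. By this measure, which uses gene spans rather than transcripts, it was the least abundant of the 4.

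In CPM per library, ID 23171 had 88.9 to 268 on G100 at 48 h (median 196), 26.4 and 10.3 on G90-L10, 27.2, 25.0, 19.4 and 6.55 on G75-L25, and 5.80 to 493 on L100 (median 11.5). At 24 h it had 83.3 to 214 CPM on G100 (median 174), 84.6 and 18.7 on G90-L10, 40.6, 43.2, 27.1 and 11.3 on G75-L25, and 5.94 to 23.6 on L100 (median 15.6). The 493 CPM belong to the library labelled L100, 48 h, replicate 3. They exceed every G100 library, whereas the other 5 libraries of the group stayed at or below 12.4 CPM. The G90-L10 libraries at 24 h were 4.51-fold apart, 1 within the range of G100 and 1 within that of L100.

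Without the libraries that stood apart, the G90-L10 mean of ID 23171 was 9.42 % of the G100 mean at 48 h and 31.5 % at 24 h. The G75-L25 mean was 12.2 % and 22.6 % of it, and the L100 mean 5.36 % and 9.36 %. All 7 pairs of neighbouring groups, which mix the 2 times, overlapped in range. Within each time, the remaining G75-L25 libraries lay below every G100 library and above every L100 library. At 48 h they held 19.4 to 27.2 CPM, against at most 12.4 on L100, and at 24 h 27.1 to 43.2 CPM, against at most 23.6. G90-L10 overlapped L100 at both times and G100 at 24 h, so its place in the order is not resolved.

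**Figure D1:**
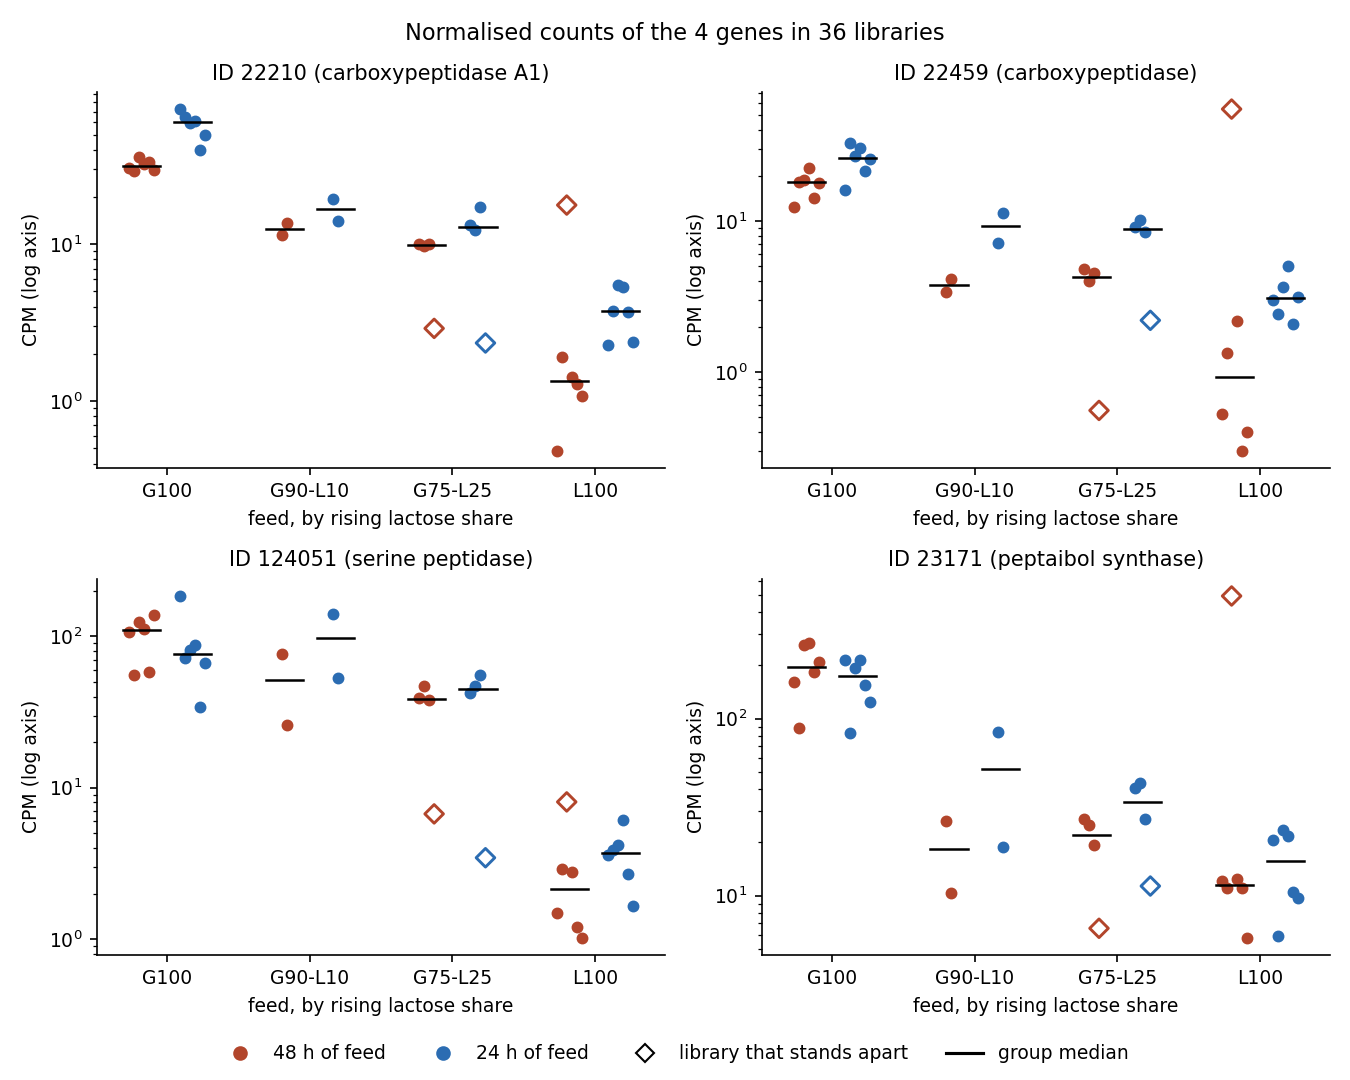
Normalised counts (CPM, log axis) of the 4 genes in each of the 36 libraries by feed, with 48 h left of 24 h within a feed. Black lines are group medians and open diamonds mark the 3 libraries that stood apart. The open diamond on L100 at 48 h lies at 17.8 CPM for ID 22210, 55.1 for ID 22459, 8.06 for ID 124051 and 493 for ID 23171.

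In the library labelled L100, 48 h, replicate 3, all 4 genes were above the other 5 libraries of the group. Relative to their median the fold was 13.9 for ID 22210, 105 for ID 22459, 5.40 for ID 124051 and 44.9 for ID 23171. With this library included, the L100 mean at 48 h was 12.5 % of the G100 mean for ID 22210, 57.6 % for ID 22459, 2.93 % for ID 124051 and 46.6 % for ID 23171. ID 22210 and ID 124051 stayed below the lowest G100 library, and ID 22459 and ID 23171 passed the highest. CBH1 in this library was 40.8-fold below the median of the other 5, and its 10 most abundant genes took 9.86 % of the counts, against 32.1 % to 36.6 % in those libraries. In the G75-L25 libraries that stood apart the genes moved the other way. They lay 3.43-fold (ID 22210) to 8.18-fold (ID 22459) below the median of the other 3 at 48 h and 3.58-fold (ID 23171) to 13.7-fold (ID 124051) below it at 24 h. What sets these libraries apart was not tested.

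Fitted differences from G100 chose these genes and are given as a description, without a test. With all 36 libraries, L100 differed from G100 at 48 h on the log2 scale by -2.93 ± 0.55 (SE) for ID 22210, -0.77 ± 0.73 for ID 22459, -5.03 ± 0.60 for ID 124051 and -1.09 ± 0.75 for ID 23171. Without the 3 libraries it was -4.69 ± 0.25, -4.12 ± 0.32, -5.68 ± 0.46 and -4.21 ± 0.41 in the same order of genes, so that 1 library sets the fitted value of 3 of the 4 genes. At 24 h the values were -3.91 ± 0.58 for ID 22210, -2.96 ± 0.80 for ID 22459, -4.52 ± 0.59 for ID 124051 and -3.41 ± 0.82 for ID 23171, and all were within 0.04 of these without the 3 libraries.

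The estimates for the mixtures differed between the 4 genes, and those for G90-L10 rest on 2 libraries per time. With 33 libraries, G90-L10 differed from G100 at 48 h by -3.41 ± 0.58 for ID 23171 and -2.20 ± 0.39 for ID 22459 on the log2 scale. For ID 22210 the difference was -1.34 ± 0.27 and for ID 124051 -0.95 ± 0.48. At 24 h the differences were -1.78 ± 0.28 for ID 22210, -1.66 ± 0.52 for ID 23171, -1.47 ± 0.36 for ID 22459 and 0.15 ± 0.44 for ID 124051. With 36 libraries the estimates for G90-L10 were the same and their SE ran from 0.69 to 1.32. With single libraries left out of the 36, those at 24 h ran from -0.71 to 0.68 for ID 124051 and from -3.12 to -0.96 for ID 23171. The ranges were -2.04 to -1.57 for ID 22210 and -1.84 to -1.18 for ID 22459. Seen from L100 with 33 libraries, ID 124051 was 4.42 ± 0.48 higher on G75-L25 at 48 h and 3.62 ± 0.42 higher at 24 h, while ID 23171 was 1.18 ± 0.43 and 1.26 ± 0.41 higher. With all 36 libraries the direction at 48 h turned for ID 23171, to -2.23 ± 0.91, and for ID 22459, to -1.55 ± 0.88 where it was 2.16 ± 0.36 with 33. ID 124051 was then 3.43 ± 0.60 higher at 48 h. These comparisons share their G100 or L100 libraries with each other, and differences among the 4 genes were not tested.

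**Figure D2:**
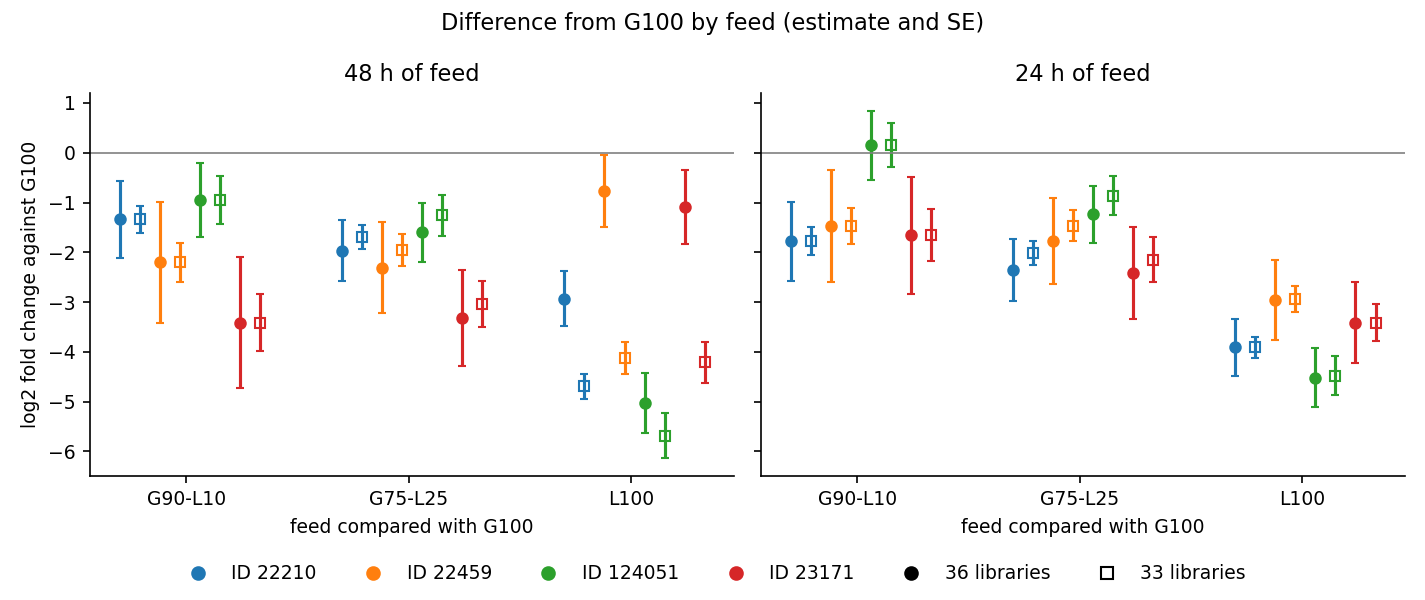
Log2 fold change against G100 (estimate, with bars of 1 SE) of the 4 genes on G90-L10, G75-L25 and L100, at 48 h in the left panel and 24 h in the right. Filled circles use 36 libraries and open squares 33. On L100 at 48 h the circles of ID 22459 (-0.77) and ID 23171 (-1.09) lie far from their squares (-4.12 and -4.21).

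Within the cluster of 64 strongly lowered genes, of which 63 were counted and tested, the 4 genes were neither the most nor the least lowered. Ranked from the most lowered on L100 with 33 libraries, ID 124051 was at rank 11 at 48 h and 20 at 24 h, ID 22210 at 29 and 33, ID 23171 at 39 at both times and ID 22459 at 40 and 56. On the log2 scale the cluster had a median difference of -4.54 at 48 h and -3.94 at 24 h, against -0.04 and -0.03 over all genes tested. With all 36 libraries the cluster median at 48 h was -1.70, and the ranks at 48 h were 4 for ID 124051, 16 for ID 22210, 42 for ID 23171 and 48 for ID 22459. At 24 h the median was -3.96 and no rank moved by more than 2.

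Change with time was not used to choose the genes, though it uses the same libraries, and it was tested with edgeR's quasi-likelihood test and Benjamini-Hochberg adjustment over all genes. The test treats the libraries of both times as independent, since the labels tie none to a flask. On L100, 48 h against 24 h, 1 of 4 genes passed an adjusted p of 0.05 with all 36 libraries, where 19.6 % of all genes did. It was ID 23171, at 2.57 ± 0.80 (SE) on the log2 scale with an adjusted p of 0.0226, and this rests on the library labelled replicate 3. Without that library alone the change was -0.55 ± 0.43 with an adjusted p of 0.351 by the same edgeR test, and without L100, 24 h, replicate 2 the adjusted p was 0.0514.

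Without the 3 libraries that stood apart, both carboxypeptidase genes fell on L100 between 24 h and 48 h. ID 22210 had a mean of 1.24 ± 0.52 CPM at 48 h (SD, n = 5) and 3.82 ± 1.38 CPM at 24 h (SD, n = 6), a log2 fold change of -1.64 ± 0.26 with an adjusted p of 3.11e-05 (edgeR). ID 22459 had 0.945 ± 0.797 CPM at 48 h and 3.23 ± 1.05 CPM at 24 h, a log2 fold change of -1.74 ± 0.33 with an adjusted p of 0.000213 (edgeR). For ID 22210 the 5 libraries at 48 h were all below the 6 at 24 h, while for ID 22459 the ranges met, 2.17 CPM being the highest at 48 h and 2.09 CPM the lowest at 24 h. ID 124051 was at -1.01 ± 0.47 with an adjusted p of 0.0946 and ID 23171 at -0.56 ± 0.38 with an adjusted p of 0.269 (edgeR). The count of 2 of 4 stands beside 33.0 % of all genes in the same comparison, so a call here is common among genes at large. With all 36 libraries the fitted changes of ID 22210 and ID 22459 had the opposite sign, 0.12 ± 0.55 and 1.63 ± 0.78, with adjusted p of 0.902 and 0.137 (edgeR).

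On G100 none of the 4 genes passed with 36 libraries, where 9.33 % of all genes did. The adjusted p of the 4 ran from 0.313 to 0.887 by edgeR, 0 of 4 had an unadjusted p below 0.05, and DESeq2 called 0 of 4 too. No share over all genes is given for the unadjusted p or for DESeq2, so these counts are not read as a result about the 4 genes. Without the 3 libraries, ID 22210 fell by 0.86 ± 0.17 on the log2 scale (edgeR adjusted p of 0.000936), where 19.1 % of all genes passed. The fold is that of the larger set, and only its SE, 0.50 there, changed. The 3 libraries are not from G100, but the model shares its estimate of spread over all groups. With only the G100 libraries ID 22210 was at -0.86 ± 0.12 with an adjusted p of 0.000516 (edgeR). Without L100, 48 h, replicate 3 alone it was at -0.86 ± 0.29 with an adjusted p of 0.0406 (edgeR). The 6 libraries at 48 h had a mean of 31.9 ± 2.6 CPM and the 6 at 24 h a mean of 57.8 ± 11.6 CPM (SD), and the groups did not overlap. With 33 libraries ID 22459 was at -0.56 ± 0.23 with an adjusted p of 0.0867 (edgeR). With only the G100 libraries it was at -0.56 ± 0.18 with an adjusted p of 0.0328 (edgeR). For the fit with only the G100 libraries no share over all genes is given. With 33 libraries ID 124051 and ID 23171 were at 0.18 ± 0.32 and 0.25 ± 0.33 (edgeR, adjusted p of 0.733 and 0.635).

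On the mixtures no change with time passed for the 4 genes by edgeR in either set of libraries. All 4 estimates were negative on both feeds, from -1.49 to -0.42 on G90-L10 and, with 36 libraries, from -1.11 to -0.18 on G75-L25. The largest were those of ID 23171 on G90-L10, -1.49 ± 0.59 with an adjusted p of 0.334, and of ID 22459 on the same feed, -1.29 ± 0.43 with an adjusted p of 0.224, both by edgeR with 33 libraries. Few genes of any kind passed on these smaller groups. The share was 0.0958 % on G90-L10 and 0.264 % on G75-L25 with 36 libraries, and 0.492 % and 1.51 % with 33. An unadjusted edgeR p below 0.05 was reached by 0 of 4 genes on either feed with 36 libraries and by 2 of 4 on each with 33. The shares above are for adjusted p, and none is given at this cut-off. These counts are therefore not read as a result about the 4 genes. DESeq2 with 36 libraries also called 0 of 4 on each feed, and no share over all genes is given for it.

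**Figure D3:**
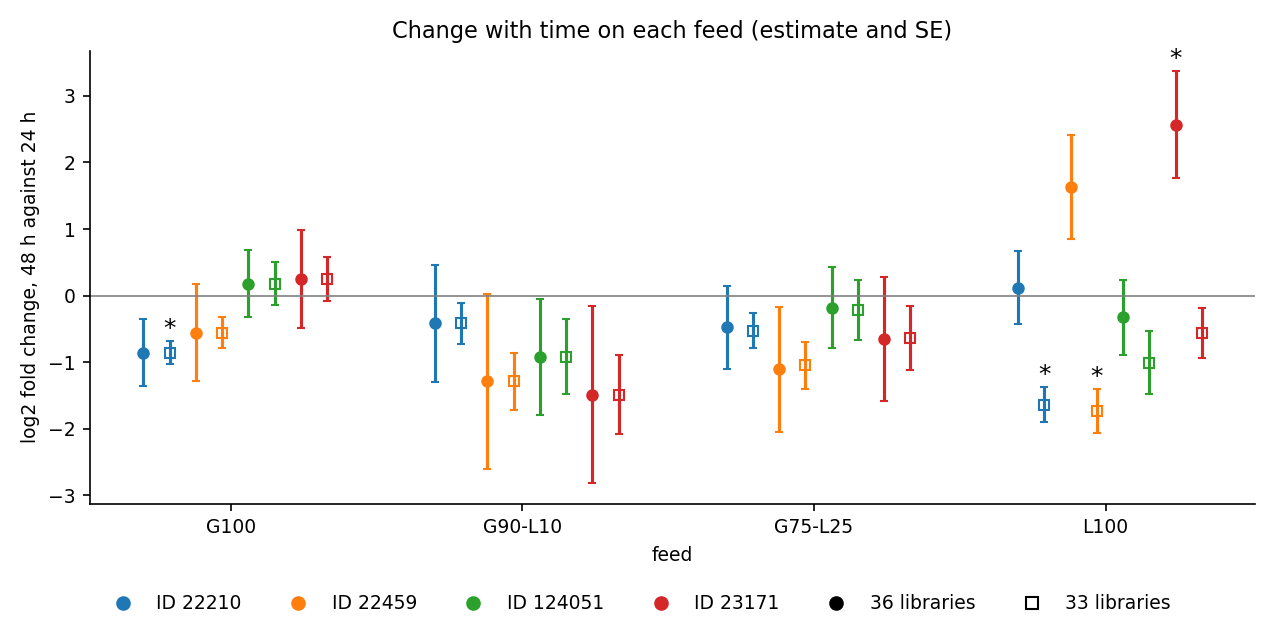
Log2 fold change of 48 h against 24 h (estimate, with bars of 1 SE) of the 4 genes on each feed, with 36 libraries (filled circles) and 33 (open squares). Stars mark an adjusted p below 0.05. On L100 the estimates of ID 22210, ID 22459 and ID 23171 are above 0 with 36 libraries and at -1.64, -1.74 and -0.56 with 33.

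The change with time on L100 minus that on G100 equals the L100 difference from G100 at 48 h minus that at 24 h. Both of these helped to choose the genes, so it is given as a description. With 36 libraries the estimates on the log2 scale were 2.32 ± 1.07 for ID 23171, 2.19 ± 1.06 for ID 22459, 0.98 ± 0.74 for ID 22210 and -0.51 ± 0.76 for ID 124051. With 33 libraries they were -0.81 ± 0.50 for ID 23171, -1.17 ± 0.40 for ID 22459, -0.79 ± 0.31 for ID 22210 and -1.19 ± 0.57 for ID 124051. The sign of 3 of the 4 genes thus depended on the libraries that stood apart.

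The other peptidases of the study's gene list did not all move with these genes. That list was selected on the same samples, so a change of its genes between feeds is no independent evidence. Of its 16 other peptidases, 5 were higher on L100 than on G100 at 48 h and 2 were lower by the thresholds of the study with 36 libraries, which ask for an adjusted p under 0.001 and a log2 fold change beyond 2 in either direction (edgeR). Over all genes 2.61 % were higher and 0.887 % lower. At 24 h 5 were higher and 3 lower, against 2.71 % and 1.51 % over all genes. Without the 3 libraries 5 were higher and 10 lower at 48 h (3.26 % and 3.77 % over all genes), and 5 were higher and 4 lower at 24 h (2.82 % and 2.26 %). The count of lowered peptidases at 48 h moved to 10 when the library labelled L100, 48 h, replicate 3 was left out alone, and to 1 without L100, 48 h, replicate 1, 5 or 6 or without G100, 48 h, replicate 6. No share over all genes is given for these sets.

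Peptidases of like annotation stood on both sides. ID 5369, which shares the annotation carboxypeptidase A1 with ID 22210, had a mean of 8.63 CPM on L100 and 0.339 CPM on G100 at 24 h, a log2 fold change of 4.65 ± 0.51 (edgeR adjusted p of 2.06e-08). It was the most raised of the list, followed at 24 h by the putative metalloprotease ID 107142 at 3.39 ± 0.50 and the peptidase S41 ID 103039 at 2.57 ± 0.31. The level of ID 107142 was low, with 0.804 CPM on L100 and 0.07025 CPM on G100 at 24 h. The most lowered was ID 106661, a putative scytalidopepsin B, which is a glutamic peptidase, with 0.384 CPM on L100 and 6.41 CPM on G100, a log2 fold change of -4.10 ± 0.76 (edgeR adjusted p of 4.47e-05). The study names it together with the 4 genes. The putative pepsins, aspartic peptidases, ID 74156 at -3.21 ± 0.34 and ID 121306 at -2.83 ± 0.62 came next.

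With time on L100, 3 of the 16 peptidases fell and 0 rose with 36 libraries, and 8 fell and 1 rose with 33 (edgeR adjusted p below 0.05). Over all genes 19.6 % passed in either direction with 36 libraries and 33.0 % with 33. The total of 3 ranged from 1 to 8 when single libraries were left out, and it was 8 without the library labelled L100, 48 h, replicate 3. On G100 1 fell and 0 rose with 36 libraries, and 2 fell and 2 rose with 33, where 9.33 % and 19.1 % of all genes passed. Such calls are common among genes at large, so these counts are not read as a result about peptidases. The median log2 fold change of the 16 on L100 was -0.09 with 36 libraries and -0.86 with 33.

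**Figure D4:**
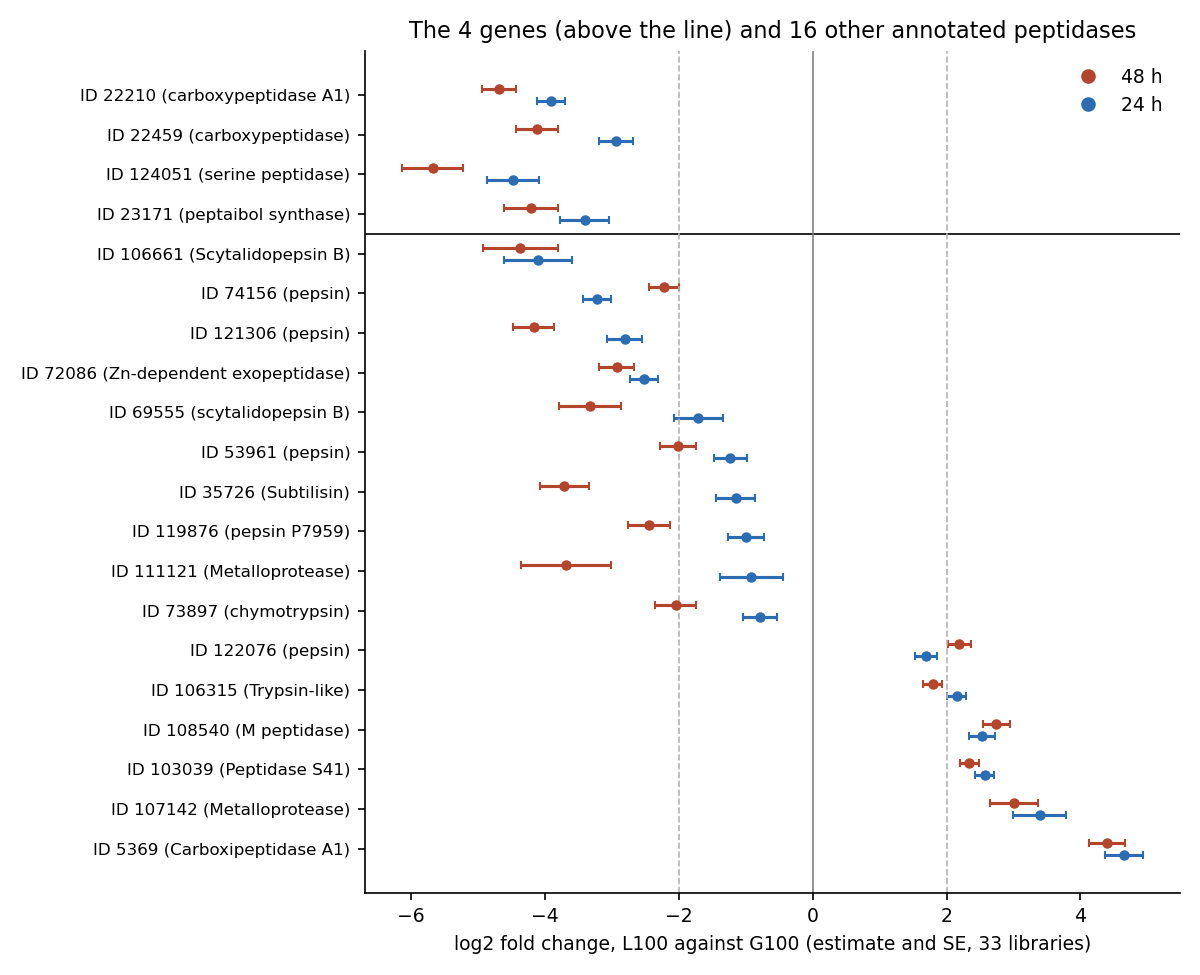
Log2 fold change of L100 against G100 (estimate, with bars of 1 SE, 33 libraries) at 48 h and 24 h for the 4 genes, above the line, and the 16 other peptidases in the gene list of the study. Dashed lines mark -2 and 2. The 4 genes lie between -5.68 and -2.94, and the others between -4.37 and 4.65.

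Peptide synthetases and peptide transporters of the same list were set beside ID 23171. The synthetase of hypojecorin, ID 123786, was at -1.47 ± 0.44 at 24 h on L100 against G100 and another nonribosomal synthetase, ID 60751, at 1.53 ± 0.49, and neither met the thresholds with 36 libraries. With 33 libraries ID 123786 was lower at 48 h (-2.37 ± 0.20) and ID 60751 higher (2.20 ± 0.36). Of 3 peptide transporters, ID 46794 was lower at 24 h at -4.61 ± 0.71, with 20.4 CPM on L100 and 502 CPM on G100, and ID 80086 and ID 70934 were higher, at 7.38 ± 0.78 and 3.56 ± 0.81. Transporters of this kind carry short peptides, the products of peptidases, into the cell.

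The transporter gene ID 46794 was also the gene whose pattern over the 8 groups was most like that of ID 22210. Likeness was the root mean square difference of mean log2 CPM, centred on each gene's own mean, over the 8 groups, and is a description. The difference was 0.25 for ID 46794, then 0.36 for ID 111923, of unknown function, and 0.38 for ID 53053, a putative clavaminate synthase, where the median over all genes tested was 1.48. For ID 22459 the nearest were ID 123978, a putative alcohol oxidase (0.29), ID 104584, a putative GPI-anchored protein (0.32), and ID 80019 (0.34), with a median of 1.27 over all genes.

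For ID 124051 no gene came as near. ID 59628, a putative glycoside hydrolase, differed by 0.67, ID 46794 by 0.73 and the pepsin ID 121306 by 0.74, with a median of 1.93 over all genes. ID 23171 had close company, with ID 122874, of unknown function, and the putative aquaporin ID 81082 both at 0.19 and the putative glucosamine-6-phosphate isomerase ID 49898 at 0.29 (median 1.39). Among the 4 genes themselves, ID 22459 ranked 13 among the genes nearest to ID 22210 (0.52), while ID 124051 (0.82) and ID 23171 (0.84) ranked 125 and 140. ID 124051 and ID 23171 were the most unlike pair, at 1.46. These values use 36 libraries. With 33, the 3 nearest genes shared 2 with those named for ID 22210, 1 for ID 22459, 3 for ID 124051 and 2 for ID 23171. ID 46794 stayed nearest to ID 22210 (0.26), ID 22459 then ranked 6 (0.43), and ID 124051 and ID 23171 were still the most unlike pair (1.38). With 36 libraries and a prior count of 0.5 in place of 2, ID 111923 was nearest to ID 22210. ID 46794 came next there, both at 0.25.

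The genes beside the 4 in the RefSeq annotation were also examined, because lowered genes can lie side by side. That annotation places up to 3 genes on either side, 22 in all, since only 1 follows ID 22459 before the order of positions restarts. Of these, 21 were tested. With 33 libraries, 2 were lower and 3 higher on L100 than on G100 at 48 h by the thresholds of the study, and 1 was lower and 1 higher at 24 h (edgeR). Over all genes 3.77 % were lower and 3.26 % higher at 48 h, and 2.26 % and 2.82 % at 24 h. With 36 libraries 1 was lower and 2 higher at 48 h (0.887 % and 2.61 % over all genes), and 1 lower and 1 higher at 24 h (1.51 % and 2.71 %). With 33 libraries their median lay at -0.19 on the log2 scale at 48 h and at -0.04 at 24 h.

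Both lowered neighbours lie beside ID 22210. The third gene after it, ID 60635, a putative glycoside hydrolase also in the strongly lowered cluster, was at -5.66 at 48 h and -5.58 at 24 h with 33 libraries. With 36 it was at -2.24 at 48 h, with an edgeR adjusted p of 0.0122 that misses the threshold, and at -5.59 at 24 h. The gene directly after it, ID 61055, was at -3.45 at 48 h from a G100 mean of only 0.380 CPM, and at -2.30 with 36 libraries. ID 106936 between these genes was higher, at 2.04 at 48 h and 3.55 at 24 h, but at 48 h it was at 1.74 with 36 libraries and did not pass. Its G100 means were only 0.206 CPM at 48 h and 0.128 CPM at 24 h. The others higher at 48 h, ID 108024 beside ID 22459 and ID 111048 beside ID 23171, had G100 means of 0.0786 and 0.115 CPM. No neighbour of ID 22459, ID 124051 or ID 23171 was lowered past the thresholds in either set, the nearest being ID 123611 beside ID 23171 at -1.99 at 48 h and -1.90 at 24 h with 33 libraries. The immediate neighbours of ID 124051 were at -0.27 and -1.31 at 48 h.

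**Figure D5:**
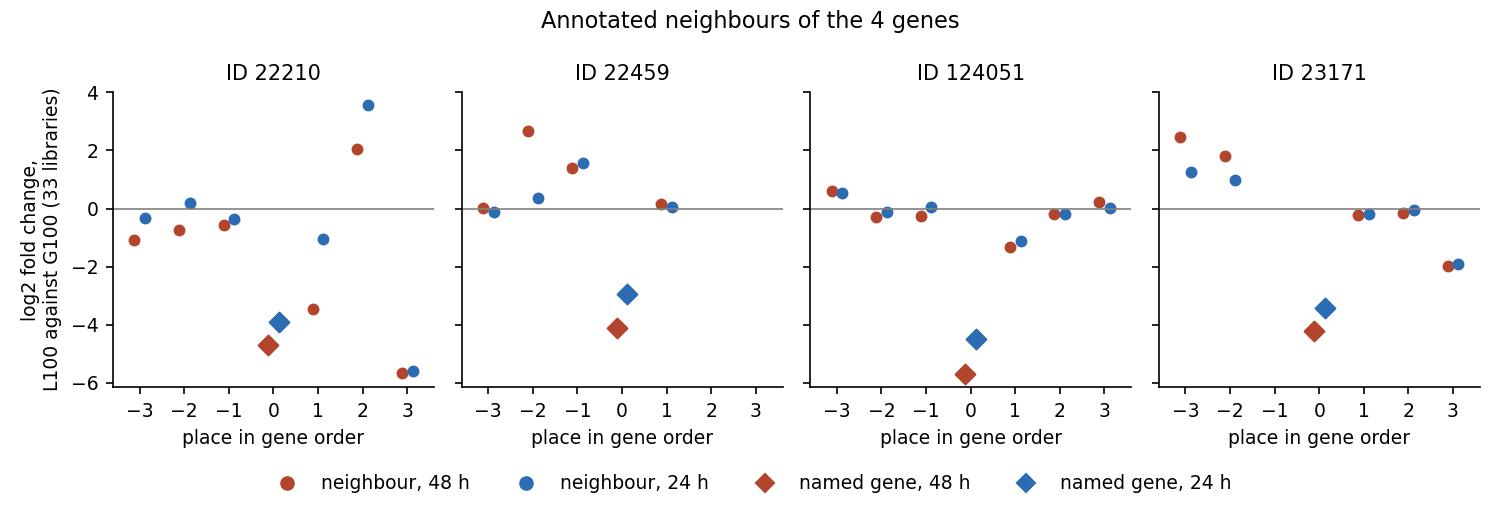
Log2 fold change of L100 against G100 (33 libraries) at 48 h and 24 h for the 4 genes (diamonds, place 0) and the genes up to 3 places before and after each in the annotation (circles). The untested gene directly before ID 23171 has no point. Beside ID 22210 the gene at place 3 lies at -5.66 and -5.58, and around ID 124051 no neighbour lies below -1.31.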

How the data were processed

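RNA-seq libraries were strand-specific (TruSeq Stranded mRNA, 50 bp reads). The authors trimmed and filtered reads with the Eoulsan pipeline and deposited raw counts per gene of the JGI annotation version 2, one file per library, without normalization. The submitters' processing notes name bcl2fastq 2.17.1.14, Bowtie and HTSeq 0.5.3. Gene IDs are protein IDs of the reference genome QM6a, and no assembly name beyond that annotation version is given in the sources used here.

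Counts were analysed in R 4.3.3 with edgeR 4.0.16. The function filterByExpr (minimum count 10) kept 8347 genes over 36 libraries and 8335 over 33. TMM scaling and quasi-likelihood tests used 1 model with a mean per group of feed and time, and p-values were adjusted by Benjamini-Hochberg over all genes tested. The study replicated each feed in as many flasks as there are libraries per time, so the same flasks may have been sampled at both times. The tests treat all libraries as independent. P-values judge a difference against the spread between libraries within groups, pooled over all groups. The difference between L100 and G100 in the change with time, planned as a test, is given without one, since the contrasts it joins chose the genes. Log2 CPM used a prior count of 2. Simulated data with 200 genes changed by 2 on the log2 scale gave back 195 of them for 48 h against 24 h on G100, 194 on L100, 195 on G75-L25 and 187 on G90-L10. False calls numbered 7, 12, 13 and 6 in the same order. The changed genes were drawn from the better counted ones, and no simulated library stood apart. The simulation therefore checks the code and does not give the power for the 4 genes. Alternatives were RLE scaling, library size alone, DESeq2 1.42.0, other filters, other sets of libraries and other thresholds. Python 3.11.15, pandas 2.3.3 and matplotlib 3.10.9 made the derived values and figures.

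The genes and gene lists were chosen with earlier results of these data known, as were the 3 libraries that stood apart. The rule for named genes took the 4 genes, the 3 most raised and 3 most lowered called peptidases on L100 against G100 at 24 h, the 3 genes nearest in pattern and the annotated neighbours. It was to draw peptidases from product names of RefSeq, which the table used here does not give, so the list of the study replaced them. The RefSeq table (9116 genes, 9072 of the 9129 counted IDs matched) gave spans and gene order only. IDs 61055, 106936, 108024, 111048 and 123611 are neighbours described singly after their values were seen. Sequences were not used here.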

Additional observations from a re-analysis of the deposited data

Results flagged for a closer look

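Dixon's test flagged a library at the edge of its group 6 times in 24 combinations of a gene and a group of 4 or 6 libraries. The cut-off flags about 1 in 20 single groups by chance. The combinations are not independent, since the 4 genes share their libraries and some flagged libraries were already known to stand apart. The 6 flags are therefore not set against chance. The library labelled L100, 48 h, replicate 3 accounts for 4 of the 6 flags, as the highest of its group at 17.8 CPM for ID 22210 (others 0.484 to 1.92), 55.1 for ID 22459 (0.301 to 2.17), 8.06 for ID 124051 (1.02 to 2.88) and 493 for ID 23171 (5.80 to 12.4). The G75-L25 library that stood apart at 48 h was the lowest of its group for ID 22210, at 2.91 CPM where the other 3 had 9.70 to 9.98. ID 124051 had 185 CPM in G100, 24 h, replicate 1, a library that did not stand apart otherwise, where the other 5 had 34.0 to 87.6 CPM. With that library left out, the log2 fold change of L100 against G100 at 24 h was -4.16 ± 0.58 (SE), against -4.52 ± 0.59 with all 36.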

How the results depend on the processing

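The changes with time on L100 of 3 genes reversed without the 3 libraries that stood apart, to -1.64 for ID 22210, -1.74 for ID 22459 and -0.56 for ID 23171, and their differences from G100 in that change reversed to -0.79, -1.17 and -0.81. Leaving out 1 library at a time gave ranges of -1.63 to 0.36, -1.73 to 1.88 and -0.55 to 2.81 for the changes and of -0.78 to 1.21, -1.17 to 2.44 and -0.80 to 2.56 for the differences. Every reversal there came from the library labelled L100, 48 h, replicate 3. Small values of ID 124051 also changed sign, its change with time on G75-L25 (-0.56 to 0.16) and its G90-L10 value against G100 at 24 h (-0.71 to 0.68).

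The number of the 4 genes called for time on G100 was 0 and became 1 without the 3 libraries, 2 with only the groups compared and 0 to 1 with single libraries left out. On L100 it was 1 and became 2, 0 with only the groups compared, 0 at the thresholds of the study and 0 to 2 with single libraries left out. Over all genes the share on G100 was 9.33 % and became 19.1 % without the 3 libraries. On L100 it was 19.6 % and became 33.0 %. For the other settings no share is given, so these counts are not read as a result about the 4 genes. L100 against G100 moved at 24 h with scaling by library size alone to -4.50 for ID 22210 and -3.54 for ID 22459. The median of all genes was -0.61 under that scaling and -0.03 with TMM. At 48 h L100 against G100 moved without the 3 libraries to -4.69 for ID 22210, -4.12 for ID 22459 and -4.21 for ID 23171. It ranged from -4.69 to -2.70, -4.12 to -0.52 and -4.21 to -0.85 with single libraries left out.

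Of the 16 other peptidases, the number lower at 24 h was 3 and became 7 at an adjusted p below 0.05 alone. At 48 h it was 2 and became 4 by library size alone, 4 with DESeq2, 1 with at least 10 counts in every library, 1 with only the groups compared, 9 at an adjusted p below 0.05 alone and 10 without the 3 libraries, with 1 to 10 for single libraries left out. The number higher was 5 at both times and became 2 by library size alone and 3 with at least 10 counts in every library at both, and 2 at 48 h with only the groups compared. The cause of these shifts was not tested, except that a filter on every library tests fewer genes. The genes nearest in pattern were partly shared, 1 to 3 of 3, without the 3 libraries, and 2 to 3 of 3 with a prior count of 0.5. No paired analysis was possible because the labels carry no replicate numbers, and those used here, given in the order of deposit, only name libraries.

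Depth limits ID 22459 most, with 4 to 49 counts on L100 at 48 h outside the library that stood apart. G90-L10 has 2 libraries per time, and the mixtures cannot be told apart from the year in their labels.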
